A study of Caenorhabditis elegans with 9 samples.

Results

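C38D9.2, F55B11.6, F15D4.5, timm-17B.2 and dhcr-24 are 5 protein-coding genes of Caenorhabditis elegans that were chosen by their measured mRNA level, which was higher in hrde-1 as well as in hrde-2 mutants than in wild-type animals. They are 5 of 31106 genes counted and 5 of the 12141 genes with enough counts to be tested. The values that chose them are the mutant and wild-type counts of these same libraries, so the levels in mutants against wild-type are given below as a description, with no test. Genes with so few wild-type counts pass a filter on low counts through the libraries in which they are high, and their passing it says nothing about them. The measures that did not enter the choice were the difference between the mutants, the gene models, and the genes around the 5 genes.

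The libraries were made to ask how loss of HRDE-1 and of HRDE-2 alters mRNA levels, and there are 3 from each of 3 groups. The hrde-1 group is strain USC661, which carries the allele tm1200 on chromosome III, and the hrde-2 group is strain FD53, which carries the allele qe20 on chromosome V. These strain names are those of the labels: the headers of the hrde-1 files hold the number 661, as in USC661, while those of the hrde-2 files hold 1432, which is not part of FD53. The wild-type group is strain N2. Every group is 1 strain, and its 3 libraries are biological replicates of 50000 synchronized 1-day-old adults grown at 20 °C for about 68 hours after L1 arrest. Polyadenylated RNA came from whole worms, so more expressing cells and more RNA per cell cannot be told apart.

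In nuclear RNAi, an Argonaute protein is guided by small RNAs to nascent transcripts in the nucleus, where it represses transcription and promotes repressive histone marks. HRDE-1 is the Argonaute that does this in the germ line, and it is required to inherit RNAi across generations. HRDE-2 resides in germ granules and influences the set of small RNAs loaded into HRDE-1.

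Between 5801326 and 11884233 reads were counted per library, and ribosomal RNA genes took 19.4% to 31.4% of them. All 6 intestine, 8 oocyte, 6 germ line, 5 muscle and 5 neuron marker genes examined were detected well enough to be tested, as were 3 of 4 markers of the hypodermis. The hrde-1 gene itself averaged 127 ± 17.9 CPM in hrde-1 mutants, 441 ± 4.72 CPM in hrde-2 mutants and 285 ± 78.4 CPM in wild-type, where CPM is counts per 1000000 of the scaled library size and ± is the SD over 3 libraries here and throughout. The hrde-2 gene averaged 16.4 ± 2.61 CPM in hrde-2 mutants and 39.1 ± 14.8 CPM in wild-type. Wild-type replicate 1 stood apart in several marker lists. Its summed oocyte markers were 1979 CPM, against 4187 CPM in replicate 2 and 3751 CPM in replicate 3, and its germ line markers and its nuclear RNAi genes were also the lowest of the 3, at 880 and 449.9 CPM. Genes of the major sperm protein (msp) family summed to 366 CPM in it, against 103 CPM in replicate 2 and 86.5 CPM in replicate 3. They summed to 306 to 457 CPM in hrde-1 and 1073 to 1195 CPM in hrde-2 libraries, and 26 of 27 msp genes tested rose in hrde-2, where 7.57% of all genes tested did (edgeR quasi-likelihood test, Benjamini-Hochberg adjusted p under 0.05, which is what called means below). In hrde-1, edgeR called 0 of the 27, of which 18 were higher at an unadjusted p under 0.05, and DESeq2 called 11 higher. Among all genes tested, edgeR called 1.24% higher in hrde-1. Reads shared by near-identical msp genes were not counted. Intestine markers summed to 20621 to 31661 CPM in hrde-2 and 36302 to 51144 CPM in wild-type libraries. In hrde-2, 2 of the 6 fell, where 4.25% of all genes tested did. Of the other marker lists, 1 of 8 oocyte genes fell and 1 of 6 germ line genes rose in hrde-2. The part of these markers in the results below was not tested.

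C38D9.2 (WBGene00008010) was close to silent in wild-type and abundant in both mutants. It is known by its sequence name alone. It had 1227, 1137 and 1378 counts in the hrde-1 libraries, 1477, 1543 and 1961 counts in the hrde-2 libraries, and 3, 4 and 1 counts in the wild-type libraries. Every mutant library thus held at least 1137 counts, and no wild-type library held more than 4. The mean was 131 ± 18.4 CPM in hrde-1 animals, 149.9 ± 17.6 CPM in hrde-2 animals and 0.305 ± 0.112 CPM in wild-type. Because only 8 wild-type reads lie behind it, the ratio of scaled counts has a wide counting interval: 404-fold with a 95% interval of 205 to 936 for hrde-1, and 464-fold with an interval of 235 to 1076 for hrde-2. These exact intervals cover counting error only. Of all genes tested, 1 had a log2 fold change at or above that of C38D9.2 in both mutants, namely C38D9.2 itself.

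F55B11.6 (WBGene00044249) was the shortest of the 5 genes and had the fewest wild-type reads. It had 109, 93 and 137 counts in hrde-1, 214, 374 and 354 counts in hrde-2, and 0, 2 and 0 counts in wild-type. Its level was 11.9 ± 2.46 CPM in the hrde-1 group and 27.9 ± 4.43 CPM in the hrde-2 group. All of its wild-type reads came from replicate 2, and each hrde-2 library was above each hrde-1 library. The ratio to wild-type was 146-fold for hrde-1 (95% counting interval 40.2 to 1213) and 351-fold for hrde-2 (97.0 to 2905). A fitted log2 fold change of this gene is no more than a rough size: it was 7.01 for hrde-1 and 8.24 for hrde-2 and became 9.81 and 11.04 when wild-type replicate 2 was left out and no wild-type read remained.

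F15D4.5 (WBGene00008862) had 1195, 1114 and 1368 counts in hrde-1, 2216, 2374 and 3348 counts in hrde-2, and 12, 26 and 13 counts in wild-type. The 3 groups did not overlap, with hrde-2 highest and wild-type lowest. Its mean level was 129 ± 19.2 CPM in hrde-1 animals, 238 ± 38.6 CPM in hrde-2 animals and 2.04 ± 0.41 CPM in wild-type. The log2 fold change over wild-type was 5.97 (SE 0.27) in hrde-1 and 6.85 (SE 0.27) in hrde-2. Like C38D9.2, the gene has a sequence name only.

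timm-17B.2 (WBGene00017069) encodes a protein of the TIM17 family, whose members form part of the translocase that brings proteins across the inner mitochondrial membrane. It had 3661, 3476 and 4207 counts in hrde-1, 4494, 4828 and 6612 counts in hrde-2, and 115, 168 and 87 counts in wild-type. Per length of exon it was the most abundant of the 5 genes in every library, and the wild-type libraries were nearly equal once scaled, at 15.1, 14.4 and 15.6 CPM. The mean was 398 ± 60.4 CPM in hrde-1 animals, 478 ± 70.3 CPM in hrde-2 animals and 15.02 ± 0.593 CPM in wild-type. Over wild-type, the log2 fold change reached 4.73 (SE 0.22) in hrde-1 and 4.99 (SE 0.23) in hrde-2.

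dhcr-24 (WBGene00018718) is the homologue of the vertebrate 24-dehydrocholesterol reductase, which reduces a double bond in the side chain of sterols. Worms do not make sterols from simple precursors and modify those they eat. The gene had 118, 204 and 195 counts in hrde-1, 223, 381 and 274 counts in hrde-2, and 40, 24 and 10 counts in wild-type. Every mutant library was above every wild-type library once scaled, but the distance was the smallest of the 5 genes: 10.7 CPM in hrde-1 replicate 1, against 5.25 CPM in wild-type replicate 1. The mean was 18.6 ± 7.10 CPM in hrde-1 animals, 26.2 ± 5.10 CPM in hrde-2 animals and 3.03 ± 1.92 CPM in wild-type, with a log2 fold change of 2.61 (SE 0.42) in hrde-1 and 3.10 (SE 0.42) in hrde-2. Without wild-type replicate 1, the log2 fold change was 3.28 in hrde-1 and 3.82 in hrde-2.

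Within each group, dhcr-24 had the same order over the libraries as the summed msp level. In hrde-1, replicates 2, 3 and 1 had 457, 453 and 306 CPM of msp mRNA and 24.4, 20.8 and 10.7 CPM of dhcr-24. In hrde-2, replicates 2, 1 and 3 had 1195, 1126 and 1073 CPM of msp mRNA and 32.02, 23.9 and 22.6 CPM of dhcr-24. In wild-type, replicates 1, 2 and 3 had 366, 103 and 86.5 CPM of msp mRNA and 5.25, 2.06 and 1.79 CPM of dhcr-24. Of the 31 msp genes listed, between 1 and 5 were at 0 counts in a library. At a summed msp level of 306 CPM, hrde-1 replicate 1 had 10.7 CPM of dhcr-24, and wild-type replicate 1 had 5.25 CPM at 366 CPM. These are single libraries, and the part of sperm mRNA in the dhcr-24 values was not tested.

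**Figure D1:**
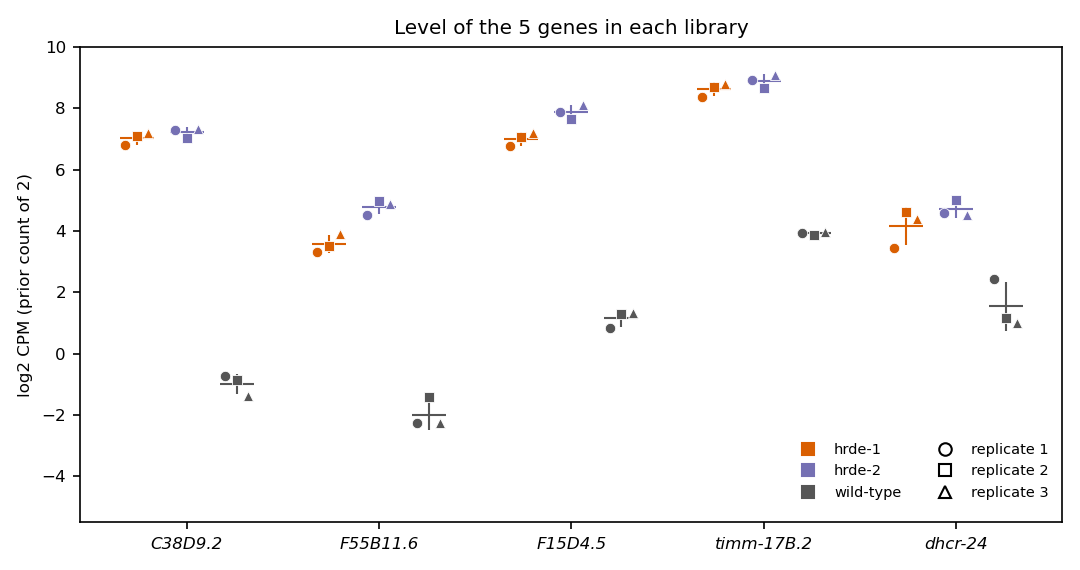
Level of the 5 genes in each of the 9 libraries. The vertical axis is log2 CPM with a prior count of 2, points are libraries (shape gives the replicate number), and horizontal and vertical lines give the mean and SD of each group of 3. All mutant points lie above all wild-type points of the same gene, and the dhcr-24 points of hrde-1 replicate 1 and wild-type replicate 1 are the closest pair.

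The plot of the levels by library shows that the 5 genes shared the order of mutants over wild-type but not the size of the step. Over all genes tested, 0.725% were called higher in both mutants and 7.3% had every mutant library above every wild-type library; the 5 genes are among both by their choice. Ranked by log2 fold change over 12141 genes, C38D9.2 was at place 3 in hrde-1 and 1 in hrde-2, F55B11.6 at 8 and 3, F15D4.5 at 11 and 12, timm-17B.2 at 27 and 29, and dhcr-24 at 124 and 266. Together the 5 genes summed to 571 to 777 CPM in hrde-1 libraries, 798 to 1037 CPM in hrde-2 libraries and 19.2 to 22.3 CPM in wild-type libraries. timm-17B.2 made up 57.7% to 58.0% of that sum in hrde-1, 50.8% to 52.7% in hrde-2 and 67.6% to 78.4% in wild-type.

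Levels were compared between genes per length, as CPM per kilobase of exon. timm-17B.2 was first in all 3 groups, at 645 ± 97.8 in hrde-1, 773 ± 114 in hrde-2 and 24.3 ± 0.959 in wild-type. In hrde-1, C38D9.2 at 78.8 ± 11.0 and F15D4.5 at 76.4 ± 11.4 followed with overlapping libraries, then F55B11.6 at 24.5 ± 5.07 and dhcr-24 at 9.44 ± 3.60. In hrde-2 the order was F15D4.5 at 141 ± 22.8, C38D9.2 at 90.03 ± 10.6, F55B11.6 at 57.4 ± 9.14 and dhcr-24 at 13.3 ± 2.59, and no neighbours in that order overlapped. In wild-type, dhcr-24 at 1.54 ± 0.975 overlapped F15D4.5 at 1.21 ± 0.243, and C38D9.2 at 0.183 ± 0.0673 overlapped F55B11.6 at 0.118 ± 0.204. dhcr-24, with the lowest per-length level of the 5 in either mutant, was therefore second by its mean in wild-type, where its libraries overlapped those of F15D4.5.

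The hrde-2 against hrde-1 comparison asks whether the genes reached the same level in both mutants. The choice of the genes used the rise of each mutant over wild-type and not the difference between the mutants, so that difference was tested. The same mutant libraries did enter the choice. F55B11.6 and F15D4.5 were higher in hrde-2 than in hrde-1, where 3.22% of all genes tested were called higher and 5.67% were called in either direction. F55B11.6 averaged 27.9 ± 4.43 CPM in hrde-2 and 11.9 ± 2.46 CPM in hrde-1, a fold change of 2.35 with a 95% interval of 1.52 to 3.63 (log2 fold change 1.23, SE 0.29, edgeR adjusted p = 0.0305 over all genes tested). F15D4.5 averaged 238 ± 38.6 CPM in hrde-2 and 129 ± 19.2 CPM in hrde-1, a fold change of 1.84 with an interval of 1.37 to 2.49 (log2 fold change 0.88, SE 0.20, adjusted p = 0.0260). For both genes all 3 hrde-2 libraries were above all 3 hrde-1 libraries, and a two-sided exact permutation test of log2 CPM gave p = 0.1, the smallest that 3 against 3 can give. Both calls were lost when hrde-1 replicate 1 or 2 or any of the 3 hrde-2 libraries was left out (adjusted p between 0.0622 and 0.157 for F55B11.6 and between 0.0691 and 0.106 for F15D4.5). They were kept in the other 13 of 18 alternatives for each, wild-type replicate 1 left out included (adjusted p = 0.00258 for F55B11.6 and 0.00199 for F15D4.5).

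Same-numbered mutant libraries had correlations of 0.15, 0.11 and 0.25 between their deviations from the group means. Wild-type and hrde-2 replicate 3 had 0.20, so these values do not settle whether the mutants are paired. A fit of the 6 mutant libraries blocked by replicate number was added after the data were seen. It called 1057 genes higher and 900 lower, against 391 and 297 in the fit reported. It also leaves out wild-type, and those 6 libraries without a block gave more calls as well. A block in all 9 libraries gave fewer, 265 and 253. F55B11.6 (adjusted p = 0.00111) and F15D4.5 (adjusted p = 0.00158) were called in the blocked fit of the 6 libraries.

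The other 3 genes were not called between the mutants, nor with that block. For C38D9.2 the fold change of hrde-2 over hrde-1 was 1.14 with a 95% interval of 0.863 to 1.51 (adjusted p = 0.644), and for timm-17B.2 it was 1.20 with an interval of 0.906 to 1.59 (adjusted p = 0.501). The intervals of both reach from slightly lower to somewhat higher, so a difference of the size seen for F55B11.6 lies outside them. For dhcr-24 it was 1.41 with an interval of 0.813 to 2.45 (adjusted p = 0.518), which is too wide to tell a level alike in both mutants from a level as different as that of F55B11.6. Exact permutation tests of these 3 genes gave p = 0.3 each (two-sided, 3 libraries against 3).

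**Figure D2:**
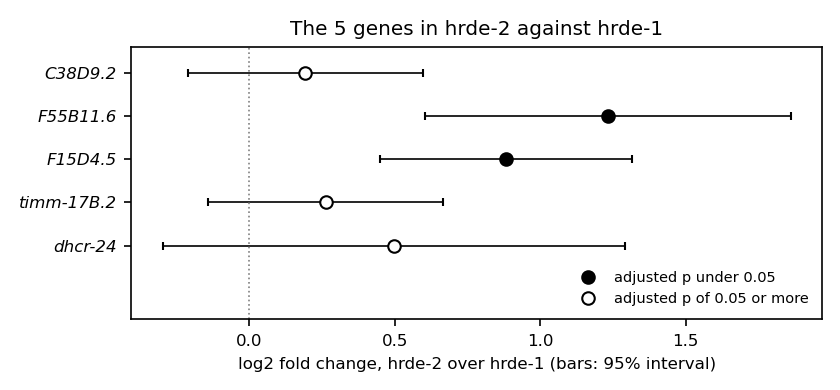
Log2 fold change of hrde-2 over hrde-1 for the 5 genes, with 95% intervals from the edgeR fit. Filled points have an adjusted p under 0.05 and open points do not; F55B11.6 at 1.23 and F15D4.5 at 0.88 are filled, and the intervals of C38D9.2, timm-17B.2 and dhcr-24 include 0.

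The plot of hrde-2 over hrde-1 shows all 5 estimates above 0, of which the intervals of F55B11.6 and F15D4.5 leave it out. The msp genes also differed between the mutants: 9 of 27 were called higher in hrde-2 than in hrde-1, with a median log2 fold change of 1.44 over the 27. Over all genes tested, 3.22% were called higher in hrde-2 than in hrde-1, and the median was -0.01. In wild-type replicate 1, the wild-type library with the most msp mRNA, F15D4.5 had 1.57 CPM, against 2.23 and 2.33 CPM in the other wild-type libraries. F55B11.6 had 0 counts there, and hardly any in wild-type as a whole. This is a single library, and the part of sperm mRNA in the F55B11.6 and F15D4.5 differences was not tested.

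The 5 genes lie on 4 chromosomes (coordinates on WBcel235, counted from 1). C38D9.2 is at chromosome V, 17567513 to 17571603, on the forward strand, F15D4.5 at II, 13245348 to 13247774, forward, and timm-17B.2 at IV, 8396493 to 8397950, forward. F55B11.6 is at IV, 14416489 to 14417201, and dhcr-24 at X, 2559727 to 2564147, both on the reverse strand. No other gene model of the count files overlaps any of the 5 on either strand, which matters because reads were counted without regard to strand. C38D9.2 is the 1 gene of the 5 on a chromosome that carries a mutated gene: it lies 2.56 Mb from hrde-2 on chromosome V. In hrde-1 mutants, whose mutation is on chromosome III, it averaged 131 ± 18.4 CPM. The part of linked variants or of strain background in its level was not tested. As every group is 1 strain, background and mutation cannot be told apart.

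The gene models range from 4 exon blocks and 618 bp of exon in timm-17B.2 and 5 blocks and 485 bp in F55B11.6 to 8 blocks and 1665 bp in C38D9.2, 7 blocks and 1688 bp in F15D4.5, and 7 blocks and 1972 bp in dhcr-24. C38D9.2 and F15D4.5, on different chromosomes, had matching exon and intron lengths over 5 exons in a row. Exons 3 to 7 of C38D9.2 measure 198, 179, 244, 506 and 300 bp, and exons 2 to 6 of F15D4.5 measure 198, 179, 247, 476 and 303 bp. The introns after these exons measure 48, 169, 59, 50 and 50 bp in C38D9.2 and 47, 172, 58, 48 and 51 bp in F15D4.5. The coding lengths, stop codon left out, are 1479 bp in C38D9.2 and 1473 bp in F15D4.5, that is 493 and 491 codons. Where the matched exons differ in length, at 244 and 247, 506 and 476, and 300 and 303 bp, they differ by a multiple of 3 bases.

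Of 21240 genes with more than 1 exon block, C38D9.2 and F15D4.5 were the only 2 with an exon of 198 bp followed by an exon of 179 bp, and the only 2 with 5 exons in a row within 30 bp of those of F15D4.5. Of the 10 pairs among the 5 genes, this was the 1 pair that shared 2 exon lengths in a row. The match was looked for after the levels were known and carries no test, and sequences were not used here. Reads that map to several places were not counted, so any stretch that is identical in both genes would be missing from the counts of each. Per length, C38D9.2 was slightly above F15D4.5 within each hrde-1 library (66.7 and 64.1, 81.6 and 78.9, and 88.2 and 86.4 CPM per kilobase), while within each hrde-2 and each wild-type library F15D4.5 was above C38D9.2.

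**Figure D3:**
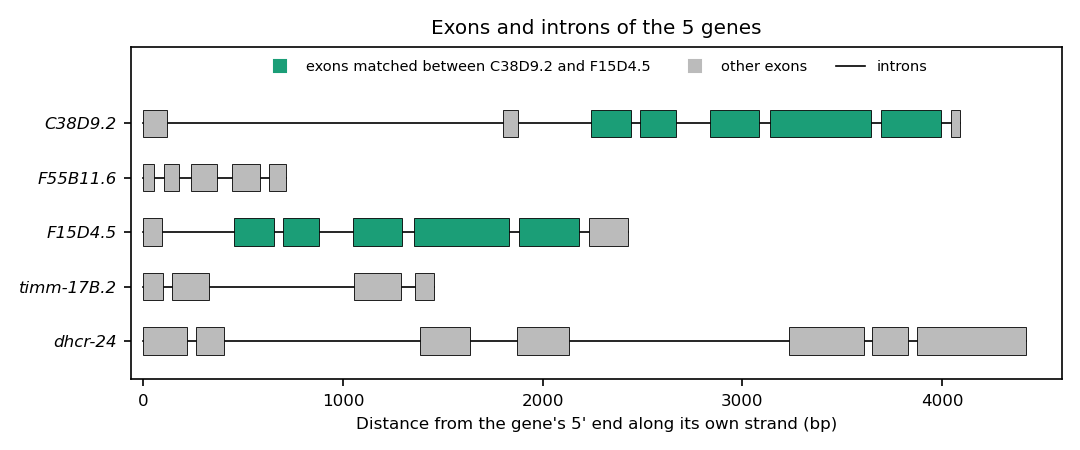
Exons (boxes) and introns (lines) of the 5 genes, drawn to scale along each gene's own strand, with the distance from the 5' end in bp on the horizontal axis. Green boxes are the 5 exons of C38D9.2 and of F15D4.5 whose lengths match within 30 bp; no box of F55B11.6, timm-17B.2 or dhcr-24 belongs to such a run.

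The drawing of the gene models shows the matched block behind introns of 1684 and 366 bp in C38D9.2 and behind an intron of 363 bp in F15D4.5. In both genes only the last exon follows the block. dhcr-24 has introns of 1098 and 980 bp, and timm-17B.2 has 1 of 725 bp. F55B11.6 is compact, with introns of 49 to 72 bp and a coding length of 273 bp. timm-17B.2 has 2 annotated transcripts, with coding lengths of 420 and 246 bp.

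The genes around the 5 genes were not used to choose them. Of the 5 nearest protein-coding genes or pseudogenes on each side of each gene, 50 in all, 33 had enough counts to be tested. In hrde-1 mutants 3 of the 33 rose and 0 fell, where 1.24% of all genes tested rose and 0.313% fell. In hrde-2 mutants 2 rose and 2 fell, where 7.57% rose and 4.25% fell. The hrde-1 count of 0 is from edgeR: 2 of the 33 were lower at an unadjusted p under 0.05, and DESeq2 called 0 lower. The median log2 fold change of the 33 was 0.14 in hrde-1 and -0.12 in hrde-2, against -0.03 and -0.10 over all genes tested. Most neighbours therefore had no called change beside genes that differed many-fold. The 2 that rose in both mutants, F15D4.6 and the pseudogene WBGene00019789, were next in line on the same strand. F15D4.6 was among the 33 only through its mutant libraries, so these counts do not measure how often neighbours rise.

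F15D4.6 (WBGene00008863) starts 1414 bp downstream of F15D4.5 on the same strand (II, 13249189 to 13249895). It had 131, 142 and 165 counts in hrde-1, 149, 192 and 257 counts in hrde-2, and 2, 10 and 2 counts in wild-type. The lowest mutant library was more than 10 times above the highest wild-type library. Its log2 fold change reached 4.80 (SE 0.40, edgeR adjusted p = 2.79e-05) for hrde-1 and 5.003 for hrde-2 (SE 0.40, adjusted p = 2.33e-05). The adjusted p were at most 6.72e-04 and 2.44e-04 over 17 alternatives. F15D4.6 passed the filter on low counts through the mutant libraries alone, so these adjusted p are given as a description. Upstream of F15D4.5, F15D4.4 on the other strand had at most 17 counts in a library and was not called (log2 fold change 0.22 in hrde-1 and -0.67 in hrde-2). F15D4.6 was not called between the mutants (log2 fold change of hrde-2 over hrde-1 0.20, SE 0.29, adjusted p = 0.779), whereas F15D4.5 was. Whether the 2 genes differ from each other in that respect was not tested.

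A pseudogene, WBGene00019789, begins 972 bp downstream of timm-17B.2 on the same strand (IV, 8398923 to 8399762). It had 149, 51 and 91 counts in hrde-1, 93, 91 and 112 counts in hrde-2, and 19, 33 and 22 counts in wild-type. All mutant libraries were above all wild-type libraries, at a mean of 9.76 ± 3.69 CPM in hrde-1 animals, 8.95 ± 1.18 CPM in hrde-2 animals and 3.09 ± 0.759 CPM in wild-type. In hrde-2 its log2 fold change reached 1.55 (SE 0.35, adjusted p = 0.0124), and this call was kept in all 17 alternatives (adjusted p at most 0.0400). In hrde-1 it was 1.68 (SE 0.35, adjusted p = 0.0296). That call was lost without hrde-1 replicate 1 or 3, without wild-type replicate 2 or 3, without any of the hrde-2 libraries, and with the 6 compared libraries alone (adjusted p between 0.0551 and 0.112). The nearest model upstream of timm-17B.2, the pseudogene WBGene00235276 on the other strand, was not called in either mutant (log2 fold change 0.63 in hrde-1 and 1.22 in hrde-2).

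Downstream of C38D9.2 no protein-coding gene or pseudogene lies within 10 kb, but the non-coding RNA gene C38D9.13 (WBGene00235090) does, 1972 bp away on the same strand (V, 17573576 to 17574048). It is named because the count was repeated over all gene types within 10 kb. It had 48, 35 and 50 counts in hrde-1, 25, 29 and 47 counts in hrde-2, and 0 counts in all 3 wild-type libraries. Against a floor of 3 counts per wild-type library it was at least 11.7-fold higher in hrde-1 and at least 7.57-fold higher in hrde-2 (adjusted p = 2.98e-04 for hrde-1 and 4.31e-04 for hrde-2). It passed the filter on low counts through the mutant libraries alone, so these adjusted p are given as a description. Upstream of C38D9.2 lie F-box genes and pseudogenes, and the nearest of them, fbxa-171, had 0 counts in every library. fbxa-172, 5900 bp upstream on the same strand, had 20, 8 and 0 counts in hrde-1, 3, 7 and 9 counts in hrde-2, and 1, 0 and 0 counts in wild-type, too few to be tested.

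Among the tested genes of the 5 nearest on each side of F55B11.6 and of dhcr-24, 0 were called higher in both mutants. xdh-1, which encodes xanthine dehydrogenase, lies 3594 bp downstream of F55B11.6 on the same strand and was not called (log2 fold change 0.47 in hrde-1 and 0.19 in hrde-2). F55B11.7, 2509 bp upstream, had 3 to 8 counts in hrde-1, 18 to 28 in hrde-2 and 1 to 7 in wild-type libraries, and was not called in either mutant (adjusted p = 0.981 in hrde-1 and 0.0716 in hrde-2). F55B11.3, 7491 bp upstream on the other strand, rose in hrde-1 at 145 ± 7.26 CPM, against 77.8 ± 2.63 CPM in wild-type (log2 fold change 0.90, SE 0.18, adjusted p = 0.0283). In hrde-2 it was not called (log2 fold change 0.23, adjusted p = 0.458). The F55B11.3 call was lost with the 6 compared libraries alone and without wild-type replicate 2 or 3, any hrde-1 library or hrde-2 replicate 3 (adjusted p between 0.0543 and 0.112).

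F52H2.5 begins only 88 bp downstream of dhcr-24 on the same strand and was not called in either mutant. It had 47, 56 and 68 counts in the hrde-1 libraries, 52, 45 and 65 counts in the hrde-2 libraries, and 31, 97 and 51 counts in the wild-type libraries (log2 fold change -0.24, adjusted p = 0.745 in hrde-1, and -0.55, adjusted p = 0.355 in hrde-2). F52H2.15, 1267 bp upstream on the other strand, had 1 to 3 counts in mutant and 4 to 13 counts in wild-type libraries and was not tested. Farther upstream, ttr-42, a transthyretin-like gene, and H01M10.1 fell in hrde-2 by 0.93 (adjusted p = 0.0246) and 1.60 (adjusted p = 0.0287) on the log2 scale. Their models overlap on opposite strands, and reads that overlap both were counted for neither. The ttr-42 call was lost with the 6 compared libraries alone and without replicate 2 of hrde-1 or replicate 1 or 2 of hrde-2 (adjusted p up to 0.133), and the H01M10.1 call in 7 of 17 alternatives (up to 0.134), among them the 6 libraries alone, a replicate block, and each hrde-2 library left out.

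**Figure D4:**
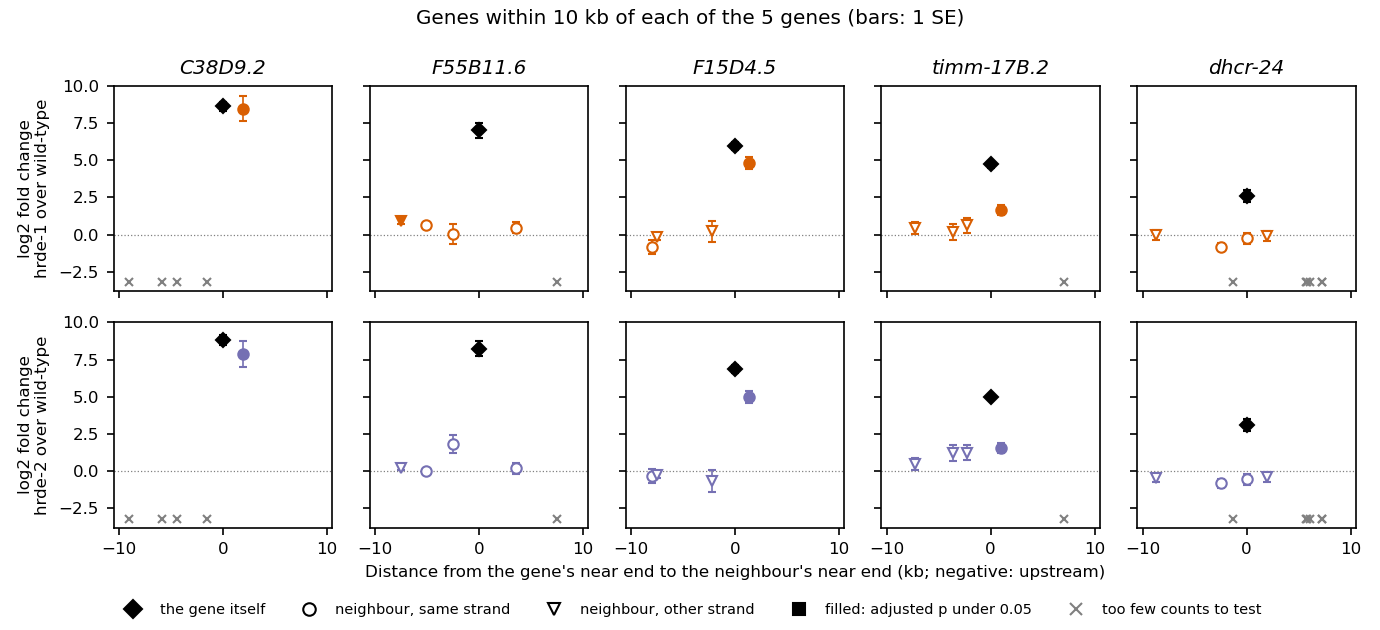
Log2 fold change over wild-type, with 1 SE, of the 5 genes (black diamonds at 0) and of the genes within 10 kb of each, by distance in kb between near ends, for hrde-1 (upper row) and hrde-2 (lower row). Circles are neighbours on the same strand and triangles on the other strand, filled where the adjusted p is under 0.05, and crosses mark genes with too few counts to test; the 3 neighbours filled in both rows are C38D9.13, F15D4.6 and WBGene00019789, each less than 2 kb downstream.

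The plot of the neighbourhoods shows the same-strand downstream gene as the 1 tested neighbour that rose in both mutants beside C38D9.2, F15D4.5 and timm-17B.2. Beside C38D9.2 it was the only neighbour with enough counts to be tested. Within 10 kb, 17 of 29 genes of any type were tested. Of these, 4 rose in hrde-1 (23.5%, against 1.24% of all genes tested) and 3 in hrde-2 (17.6%, against 7.57%). Of the 5 genes, 4 have a gene within 2 kb downstream on the same strand, and 3 of these 4 downstream genes rose in both mutants, F52H2.5 being the exception. Of the other 83 genes called higher in both mutants, 30 had a gene in that place. Of these downstream genes 15 were tested, and 2, ZC15.3 and C04G6.15, rose in both as well. Of the remaining genes tested, 5830 had one, of which 3750 were tested and 17 rose in both. A gene silent or nearly so in wild-type, such as C38D9.13 or F15D4.6, is tested only if it is high in a mutant. The shares within 10 kb and the downstream counts therefore do not measure how often neighbouring genes rise. The downstream counts were made after the neighbours' values were seen and have no test. Reads that run on past a gene's annotated end were not examined.

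timm-17B.2 and dhcr-24 belong to pathways with other members, which were counted from lists. In the list of mitochondrial protein import (translocase subunits named timm, tomm or tin, and dnj-21), 14 of 14 genes were tested. Against wild-type, edgeR called 1.55% of all genes tested in hrde-1 and 11.8% in hrde-2. Of the 13 besides timm-17B.2, it called 0 in either mutant, with 6 at an unadjusted p under 0.05 in hrde-1 and 5 in hrde-2. DESeq2 called 2 of them lower in hrde-1 and 0 in hrde-2. Their log2 fold changes lay between -0.79 and -0.04 in hrde-1, median -0.44, and between -0.67 and 0.42 in hrde-2, median -0.21, while timm-17B.2 was at 4.73 and 4.99.

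timm-17B.1 (WBGene00017119), the other TIM17 gene of that name, averaged 85.1 ± 18.3 CPM in hrde-1 animals, 110.2 ± 3.77 CPM in hrde-2 animals and 116 ± 4.53 CPM in wild-type. It was not called in either mutant (log2 fold change -0.44, adjusted p = 0.245 in hrde-1, and -0.07, adjusted p = 0.849 in hrde-2). Per length of exon, timm-17B.2 was at 6.94 ± 0.563 times timm-17B.1 in hrde-1 and 6.34 ± 0.807 times in hrde-2, against 0.191 ± 0.0121 times in wild-type. The gene that was the lesser of the pair in every wild-type library, at 0.183 to 0.205 times the other, was thus the more abundant in every mutant library, at 5.61 to 7.57 times.

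In the list of sterol metabolism and transport, 12 of 18 genes were tested. Of the 11 besides dhcr-24, 0 were called in hrde-1, where 0 also had an unadjusted p under 0.05 and DESeq2 called 0. In hrde-2, 2 fell and 0 rose (0 at an unadjusted p under 0.05 and 0 by DESeq2). The shares over all genes tested were 1.55% called in hrde-1, and 4.25% lower and 7.57% higher in hrde-2. ncr-1, a homologue of the human cholesterol transport protein NPC1, averaged 15.99 ± 2.42 CPM in hrde-2 and 32.1 ± 5.57 CPM in wild-type (log2 fold change -1.001, SE 0.23, adjusted p = 0.0145). That call did not survive the removal of wild-type replicate 3, or of replicate 2 or 3 of hrde-2 (adjusted p up to 0.0776). stdh-1, a steroid dehydrogenase family gene, averaged 11.8 ± 1.57 CPM in hrde-2 and 19.8 ± 2.75 CPM in wild-type (log2 fold change -0.75, SE 0.22, adjusted p = 0.0450), and that call was lost in 13 of 17 alternatives (adjusted p up to 0.1699). The median of the 11 genes was 0.05 in hrde-1 and 0.02 in hrde-2, beside 2.61 and 3.10 for dhcr-24.

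Of 12 genes of nuclear RNAi, all were tested, and the changes called in the mutants against wild-type were 3. Over all genes tested, 1.55% were called in hrde-1 and 11.8% in hrde-2. Each targeted gene was lower in its own mutant: hrde-1 in hrde-1 (log2 fold change -1.17, adjusted p = 0.0169) and hrde-2 in hrde-2 (-1.25, adjusted p = 0.0104). simr-1, which encodes a Tudor-domain protein of germ granules, rose in hrde-2 to 86.5 ± 2.62 CPM, against 47.0 ± 8.55 CPM in wild-type (log2 fold change 0.88, SE 0.18, adjusted p = 0.00850). For hrde-1 the call was lost with the 6 compared libraries alone, and without replicate 2 or 3 of wild-type or replicate 1 or 2 of hrde-1 (adjusted p up to 0.101), and the hrde-2 call without hrde-2 replicate 1 or 2 (up to 0.0645). The simr-1 call was kept in all 17 alternatives. Nothing in this list differed by as much as dhcr-24, the least changed of the 5 genes, all of which were chosen for a large rise.

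**Figure D5:**
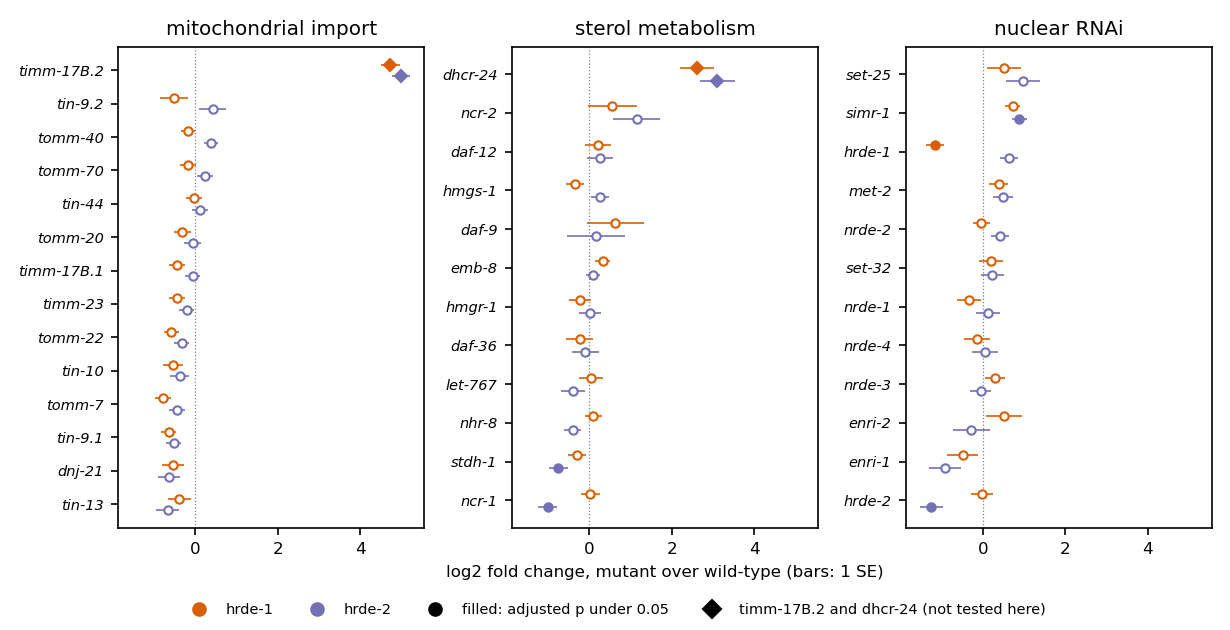
Log2 fold change over wild-type, with 1 SE, of each tested gene of the lists of mitochondrial import, sterol metabolism and nuclear RNAi, in hrde-1 (orange, upper point of each pair) and hrde-2 (purple). Diamonds mark timm-17B.2 at 4.73 and 4.99 and dhcr-24 at 2.61 and 3.10; all circles lie between -1.5 and 1.5 and those with an adjusted p under 0.05 are filled.

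The plot of the pathway lists shows timm-17B.2 and dhcr-24 far to the right of every other gene of their pathway, in both mutants. Both were chosen for their rise, so this distance follows from the choice. The fit reported called no other gene of these 2 pathway lists higher in either mutant.

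Genes with a similar pattern were found by the root mean square difference of log2 CPM (prior count of 2), each gene centred on its mean over the 9 libraries. This difference includes the step from wild-type to mutants, for which the 5 genes were chosen. Their nearness to one another therefore follows at least in part from the choice and is given as a description. The 5 genes were often one another's nearest: F15D4.5 and F55B11.6 differed by 0.33, the least of the 10 pairs, and C38D9.2 had F15D4.5 (0.95), F55B11.6 (1.05) and timm-17B.2 (1.56) as its nearest 3. After F15D4.5, F55B11.6 was nearest to F28F8.7 (0.78) and timm-17B.2 (0.81), and F15D4.5 was nearest to timm-17B.2 (0.74) and F28F8.7 (0.77). timm-17B.2 was nearest to F28F8.7 (0.22), F15D4.6 (0.33) and C38D9.13 (0.47), so that the genes just downstream of F15D4.5 and C38D9.2 were among its nearest 3. The prior count draws genes with few or no wild-type reads together, which shortens the steps of C38D9.13 and F55B11.6 on this scale.

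F28F8.7 (WBGene00009224, V, 15578984 to 15590617) averaged 67.3 ± 11.2 CPM in hrde-1 animals, 107 ± 6.23 CPM in hrde-2 animals and 3.11 ± 0.329 CPM in wild-type. dhcr-24 stood apart from the other 4, at 1.04 to 2.50 from them. Its nearest genes were R03D7.2 (0.34), ant-1.3 (0.35), which encodes an adenine nucleotide translocator, and C31H1.5 (0.37). R03D7.2 averaged 23.4 ± 9.92 CPM in hrde-1 animals, 27.7 ± 6.48 CPM in hrde-2 animals and 3.52 ± 1.58 CPM in wild-type. ant-1.3 had 4.37 ± 0.425 CPM in hrde-1 animals, 8.95 ± 2.74 CPM in hrde-2 animals and 0.686 ± 0.657 CPM in wild-type, and C31H1.5 had 2.56 ± 0.358 CPM in hrde-1 animals, 5.95 ± 1.70 CPM in hrde-2 animals and 0.567 ± 0.537 CPM in wild-type.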

How the data were processed

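The deposited files hold whole-number counts of reads per gene for 31106 genes in 9 libraries. Per the labels and headers, the authors used Trimmomatic 0.39 for trimming, HISAT2 2.2.1 for alignment to WormBase WS258 (WBcel235), and featureCounts 2.0.1 to count exons, without a strand option although the library kit keeps strand, and without reads that map to several places or overlap several genes. Groups and replicate numbers come from the sample titles. The 5 genes and all lists were chosen with earlier results of these data known.

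edgeR 4.0.16 (R 4.3.3) was used on the counts: filterByExpr left 12141 genes, libraries were scaled by TMM, and a robust quasi-likelihood model with genotype as its term was fitted to all 9 libraries. SE is the log2 fold change divided by the root of its F statistic, and p was adjusted by Benjamini-Hochberg over all genes tested. Low ratios carry exact 95% counting intervals. The fit was tested on simulated counts. Gene types and symbols come from the Ensembl annotation of WBcel235, which matched 30911 identifiers. Exons are those of the count files, and coding lengths those of Ensembl.

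Named genes were the 5 genes, hrde-1 and hrde-2, the nearest model on each side, called genes among the 5 nearest on each side, up to 4 called genes with the smallest adjusted p per list, timm-17B.1, and the 3 genes of nearest pattern. ZC15.3 and C04G6.15 were named after their values were seen. Replicate numbers were checked for pairing by correlating deviations from the group means. The hrde-1 and hrde-2 libraries of the same number had correlations of 0.15, 0.11 and 0.25, and those with wild-type lay between -0.25 and 0.20. These ranges overlap, so a pairing of the mutants is neither given by the labels nor settled by the data. As alternatives, libraries were scaled by size factors of DESeq2, by their totals, or with ribosomal RNA genes left out, and the filter was changed; further ones were the Wald test of DESeq2 1.42.0, only the 6 libraries compared, a replicate block in all 9 libraries or in the 6 mutant libraries, all gene types within 10 kb, and each library left out in turn. A planned search for related proteins was not run, since no protein sequences were used here.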

Additional observations from a re-analysis of the deposited data

How the results depend on the processing

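The mutant over wild-type log2 fold changes of the 5 genes kept their direction in all 17 alternatives. With few wild-type reads, F55B11.6 spanned 6.58 to 9.81 (hrde-1) and 7.86 to 11.04 (hrde-2) as libraries were left out. The depth limits C38D9.2 and F55B11.6 most, with 8 and 2 wild-type reads. The causes of the shifts below were not tested. Counts over all genes, higher then lower, were 150 and 38 for hrde-1, 919 and 516 for hrde-2, and 391 and 297 for hrde-2 over hrde-1. With no filter beyond 1 count they were 474 and 185 in hrde-1, and 753 and 619 for hrde-2 over hrde-1. With DESeq2 they were 411 and 156 in hrde-1, and 652 and 495 for hrde-2 over hrde-1. With only the 6 libraries compared they were 93 and 19 in hrde-1, 220 lower in hrde-2, and 835 and 558 for hrde-2 over hrde-1, and with library size alone 323 fell in hrde-2. Leaving out each library gave 86 to 767 higher and 14 to 891 lower in hrde-1, 509 to 1682 and 108 to 1115 in hrde-2, and 29 to 1032 and 61 to 585 for hrde-2 over hrde-1. Without wild-type replicate 1 alone the counts were 767 and 891 for hrde-1, 1682 and 1115 for hrde-2, and 1032 and 585 for hrde-2 over hrde-1.

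Of the 33 neighbours tested, 5 rose in hrde-1 with no filter, 5 with DESeq2 and 1 with only the 6 libraries compared, against 3 in the fit reported. In hrde-2, 0 fell with the 6 libraries alone and 0 when all genes within 10 kb were counted, against 2. Leaving out each library gave 1 to 5 higher and 0 to 1 lower in hrde-1, and 2 to 5 higher and 0 to 3 lower in hrde-2, with 5 higher in each mutant without wild-type replicate 1. For mitochondrial import, DESeq2 called 2 lower in hrde-1 and the fit without a filter 1 lower in hrde-2. Leaving out libraries gave 0 to 1 lower in hrde-1 and 0 to 1 higher in hrde-2. For sterol metabolism, 1 gene fell in hrde-2 with DESeq2 size factors, with library size alone, with no filter and with the 6 libraries alone, and leaving out libraries gave 0 to 2 lower in hrde-2 and 0 to 1 higher in hrde-1. For nuclear RNAi, DESeq2 called 1 higher in hrde-1 and 2 higher in hrde-2, no filter gave 2 higher in hrde-2, and the 6 libraries alone 0 lower in hrde-1. Leaving out libraries gave 0 to 1 higher and 0 to 1 lower in hrde-1, and 1 to 2 higher and 0 to 2 lower in hrde-2.

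Deviations from the group means correlated at -0.25 to 0.20 between wild-type and mutant libraries of the same replicate number. Over all groups a library correlated best with its own number in 8 of 18 comparisons. With a replicate block in all 9 libraries, 1 neighbour and 1 sterol gene fell in hrde-2 in place of 2 each (H01M10.1, adjusted p = 0.0529, and stdh-1 lost their calls), 127 genes rose and 27 fell in hrde-1, 865 rose and 466 fell in hrde-2, and 265 rose and 253 fell for hrde-2 over hrde-1. The calls of F55B11.6 and F15D4.5 between the mutants were kept under this block. The block in the 6 mutant libraries alone, added after the data were seen, gave 1057 higher and 900 lower for hrde-2 over hrde-1, where those 6 libraries without a block gave 835 and 558, and it changed no call of the 5 genes.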
